A study of Mus musculus with 6 samples.

Results

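The 10 genes described here encode class 3 semaphorins and their receptors in the mouse heart. They are the ligands Sema3a, Sema3b, Sema3c, Sema3d, Sema3e and Sema3f, the neuropilins Nrp1 and Nrp2, and the plexins Plxna2 and Plxnd1. They were picked by gene symbol out of 20893 genes in the table, and each symbol matched 1 row. RNA was compared between hearts labelled R1KO, which carry a germline knockout of the RNA-binding protein gene Rbpms, and wildtype hearts (KO and WT below), with 3 libraries in each group. The labelled strain was C57BL6/J for both. Embryonic hearts are named in the series title but neonatal ones, with littermate controls, in its design text, and no age is given, so the stage is not resolved. No label says whether a library came from 1 animal or from pooled animals, and p-values therefore measure only the spread between these samples.

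Class 3 semaphorins are secreted guidance proteins that steer axons, neural crest cells and growing vessels, mostly by repulsion. Neuropilins bind the ligand but signal little by themselves, and plexins pass the signal on through a cytoplasmic domain that acts on small GTPases of the Ras family. In the developing heart the system is known for the septation of the outflow tract by neural crest cells, the patterning of coronary and pulmonary vessels and the placing of sympathetic nerves.

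Rbpms held 375, 340 and 507 in the KO libraries and 1182, 1176 and 1317 in the WT libraries, so every KO library lay below every WT library (log2 fold change -1.61, limma adjusted p = 0.0124). Which stretch of Rbpms was deleted is not stated in the labels. Read totals recovered from the deposited values ran from about 4163230 to 5805710 a library. KO replicate 3 and WT replicate 1 expressed Xist and lacked Y-linked RNA, and the other 4 libraries showed the reverse. KO replicate 3 stood apart in cell type markers. Its 9 markers of epicardium and mesothelium summed to 1020, against 1834 and 1997 in the other KO libraries and 1801 to 2046 in WT libraries. Its 7 erythroid markers summed to 2131, against 805 and 904 in the other KO libraries and 738 to 952 in WT libraries. The heart label held, since 11 cardiomyocyte markers summed to 30674 to 34619 in KO and 31997 to 35095 in WT libraries.

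The members were chosen with results of this contrast known. Their differences are therefore given as a description, and an adjusted p beside a member states where it fell in the fit over all 14974 tested genes, with no independent weight. Values are normalized read numbers per gene, and log2 fold changes are KO over WT on the log2(value + 1) scale. Of the 9 members with enough reads to be tested, 1 was past the threshold in this fit, Sema3b, which was higher in KO (limma, Benjamini-Hochberg adjusted p under 0.05). The share past it was 0.942% of all tested genes in either direction and 0.508% in the higher direction. That is 141 genes, a number that ran from 0 to 727 as each library was left out. The groups did not overlap in 4 of the 9, with Sema3b, Sema3f and Nrp1 higher and Sema3c lower in KO. Over all tested genes that share was 22.0%, or 11.0% higher and 10.9% lower. In whole hearts, more cells of a type cannot be told apart from more RNA in each cell, which holds for every gene below.

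**Figure D1:**
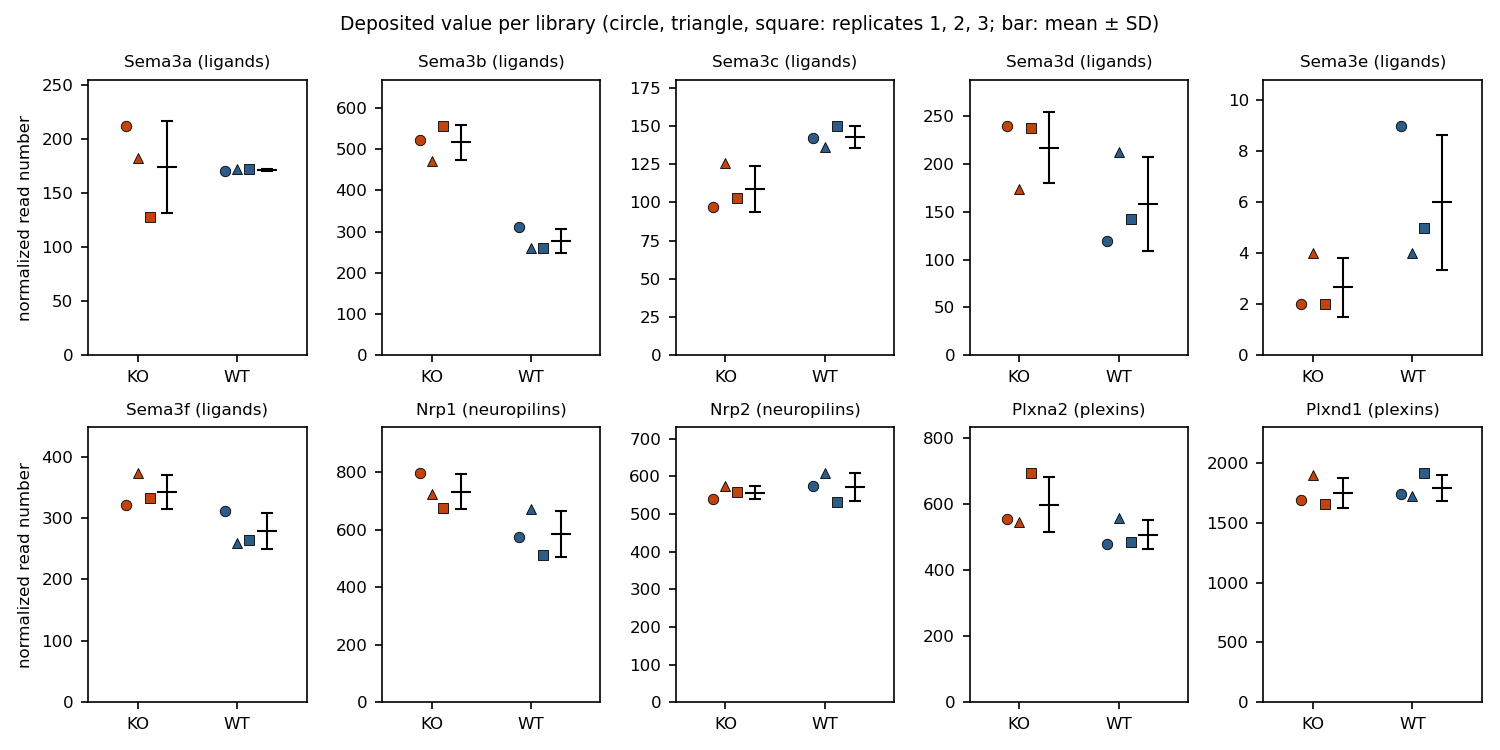
Deposited normalized read number (vertical axis, from 0) of each of the 10 genes in the 3 KO and the 3 WT libraries, with marker shapes for replicates 1, 2 and 3 and bars for the mean ± SD (n = 3). Sema3b lies between 472 and 557 in KO and between 260 and 312 in WT libraries, and Plxnd1 and Nrp2 overlap between the groups.

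Sema3b had the clearest difference of the ligands. Its product is a secreted semaphorin that signals through neuropilins, known from human tumours as a growth-restraining gene. It held 523, 472 and 557 in the KO libraries and 312, 260 and 260 in the WT libraries. Every KO library lay above every WT library, and the lowest KO value was well clear of the highest WT value. The mean was 517 ± 42.8 in KO and 277 ± 30.02 in WT hearts (SD, n = 3 each), a ratio of 1.87. On the log2 scale the fold change came to 0.90 (SE 0.10, 95% interval 0.68 to 1.12, limma adjusted p = 0.0124). By unadjusted p it was gene number 6 of all tested genes. Without KO replicate 3 the log2 fold change was 0.84 (limma, adjusted p = 0.000566), the lowest of the alternatives run, and in the 4 male libraries it was 0.93 (adjusted p = 0.0004). The adjusted p was 0.0671 without KO replicate 1, 0.0974 without WT replicate 2 and 0.143 without WT replicate 3, with log2 fold changes of 0.89, 0.86 and 0.86.

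Both Sema3b (chr9:107474873-107486428 in mm39) and Sema3f (chr9:107558699-107587674) are transcribed from the reverse strand of chromosome 9, with 72271 bases between them. Sema3f, whose product prefers Nrp2 and limits lymphatic and blood vessel growth, held 321, 373 and 333 in KO libraries and 312, 259 and 265 in WT libraries. The groups did not overlap, but the lowest KO value and the highest WT value were close. Sema3f averaged 342 ± 27.2 in KO and 279 ± 29.0 in WT hearts (SD, n = 3 each; log2 fold change 0.30, 95% interval 0.08 to 0.52, limma adjusted p = 0.18).

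The genes around Sema3b were read to see whether the difference was shared along the chromosome, a look taken after the values were seen. The deposited table lists 19 other genes within 100000 bases of Sema3b, none of which overlaps it, and 15 of them were tested. By limma 0 of the 15 were past the threshold, with 0 by voom and 5, Sema3f among them, at an unadjusted p under 0.05, which 16.4% of all tested genes reached. Of these 5, Rassf1, Hyal2, Ifrd2 and Sema3f were higher in KO and Cacna2d2 was lower. The same 5 were the tested neighbours whose groups did not overlap, a share that was 22.0% over all tested genes. Their log2 fold changes ran from -0.70 in Cacna2d2, a calcium channel subunit, to 0.44 in Hyal1, a lysosomal hyaluronidase. Ifrd2 and Lsmem2, the nearest tested genes on one side, were at 0.19 and -0.11. Gnai2, a G protein subunit between the pair of semaphorins, stood at -0.13. Hyal2, a hyaluronidase anchored in the cell membrane, had the smallest adjusted p of the neighbours, with 573, 550 and 556 in KO and 450, 451 and 448 in WT libraries (log2 fold change 0.31, adjusted p = 0.0521).

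**Figure D2:**
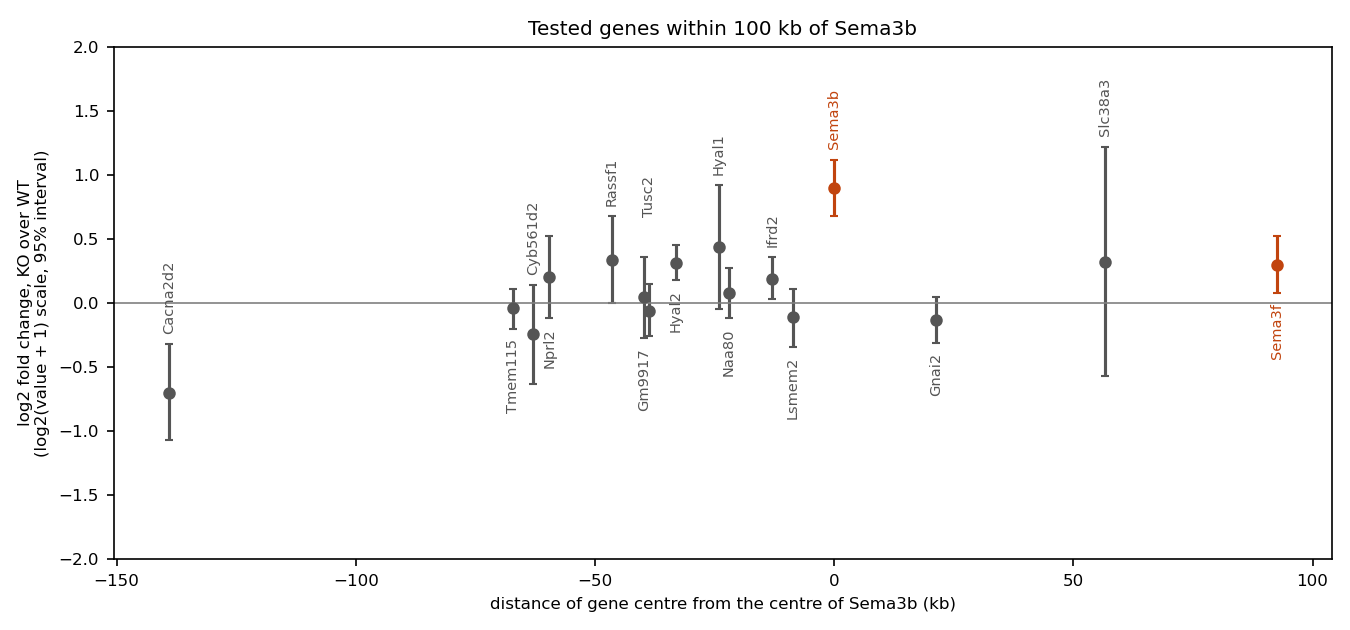
Log2 fold change, KO over WT, with its 95% interval (vertical axis) for the tested genes within 100000 bases of Sema3b, against the distance of their centres from the centre of Sema3b in kb (a gene counts by its nearest edge). Sema3b at 0.90 lies above its neighbours, which run from -0.70 to 0.44, and Sema3f lies at 0.30.

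The other 4 ligands lie within 5.5 Mb on the forward strand of chromosome 5 and did not move together. Sema3c, the ligand that draws cardiac neural crest cells into the outflow tract, lies from 17779279 to 17935266. It held 97, 126 and 103 in KO libraries and 142, 136 and 150 in WT libraries. Every KO library lay below every WT library. Its means were 109 ± 15.3 in KO and 143 ± 7.02 in WT hearts (SD, n = 3 each), a ratio of 0.762 (log2 fold change -0.40, 95% interval -0.70 to -0.09, limma adjusted p = 0.189). The log2 fold change was -0.51 without KO replicate 2, the KO library nearest to the WT values.

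Sema3d, which guides endothelial cells and patterns the pulmonary veins, lies from 12433352 to 12638915. It held 240, 174 and 238 in KO libraries and 119, 213 and 143 in WT libraries. WT replicate 2 lay above KO replicate 2, so the groups overlapped, and the WT libraries varied widely. The log2 fold change was 0.48 with a 95% interval from -0.03 to 1.00 (limma, adjusted p = 0.329). It was 0.72 without WT replicate 2 and 0.30 without WT replicate 1, and 0.23 in the male libraries, which leave out WT replicate 1 and KO replicate 3.

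Sema3a, the repellent that sets the density of sympathetic nerves in the heart, lies from 13175381 to 13652533. It held 212, 182 and 128 in KO libraries and 170, 172 and 172 in WT libraries. The WT values were nearly equal, while the KO values lay on both sides of them, with KO replicate 3 the lowest of all 6. The log2 fold change of -0.01 (95% interval -0.39 to 0.37) thus averages unlike libraries, and it was 0.20 without KO replicate 3 (limma, adjusted p = 0.357). The markers of epicardium and of erythroid cells given above set the same library apart, and their part in this value was not tested.

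Sema3e (chr5:14075290-14306703), which binds Plxnd1 directly without a neuropilin and shapes vessel growth, was barely detected. It held 2, 4 and 2 in KO libraries and 9, 4 and 5 in WT libraries, a few reads each. Its values did not reach 10 in 3 libraries, so it was not tested in the fit used, and a difference between the groups was not detectable at this depth.

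Nrp1 is the neuropilin that serves Sema3a and also binds vascular endothelial growth factor on endothelial cells. Its gene (chr8:129085085-129229844, forward strand) shares a chromosome with Rbpms, 94.7 Mb away. Nrp1 held 796, 724 and 674 in KO libraries and 574, 670 and 510 in WT libraries. The groups did not overlap, but KO replicate 3 and WT replicate 2 differed by only a few reads. It averaged 731 ± 61.3 in KO and 585 ± 80.5 in WT hearts (SD, n = 3 each; log2 fold change 0.33, 95% interval 0.09 to 0.57, limma adjusted p = 0.17). Without KO replicate 3 the log2 fold change was 0.39 (adjusted p = 0.0542).

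Nrp2, the neuropilin of lymphatic and venous endothelium, did not follow Nrp1. It held 540, 574 and 558 in KO libraries and 574, 609 and 533 in WT libraries. The groups overlapped throughout, and the 95% interval of the log2 fold change of -0.04 ran from -0.20 to 0.12 (limma, adjusted p = 0.841). A difference of the size seen in Sema3b lies outside that interval. Nrp2 lies on chromosome 1, from 62742444 to 62857854.

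Plxnd1, the plexin of endothelial cells, whose loss in mice disturbs the outflow tract and vessels, held the highest values of the 10. They were 1691, 1894 and 1655 in KO libraries and 1735, 1723 and 1913 in WT libraries, with the groups overlapping throughout. Its log2 fold change was -0.04 with a 95% interval from -0.20 to 0.13 (limma, adjusted p = 0.844). Its gene is on chromosome 6 (chr6:115931772-115971966, reverse strand).

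Plxna2 encodes a plexin that pairs with neuropilins in cardiac neural crest cells. It held 556, 547 and 695 in KO libraries and 479, 558 and 486 in WT libraries. KO replicate 3 was the highest of the 6, and the other KO libraries lay just below WT replicate 2, so the groups overlapped. The log2 fold change was 0.23 (limma, adjusted p = 0.308), against 0.12 without KO replicate 3 and 0.083 in the male libraries. Plxna2 lies on chromosome 1 from 194300526 to 194499177 and overlaps 2 listed noncoding genes whose values reach at most 25.

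**Figure D3:**
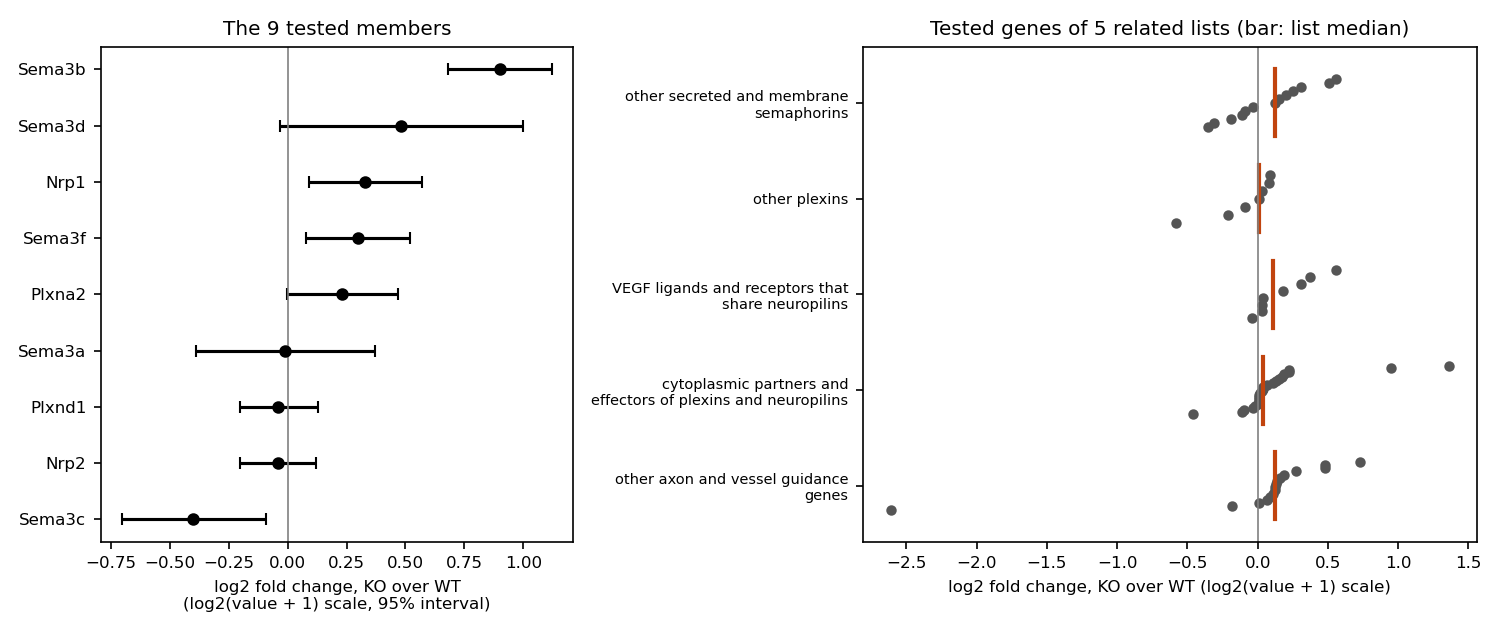
Left, log2 fold change of the 9 tested members, KO over WT, with 95% intervals. Right, the same quantity without intervals for the tested genes of 5 related lists, with a bar for each list's median. Sema3b at 0.90 is the highest of the members and Sema3c at -0.40 the lowest, and the list medians lie between 0.01 and 0.13.

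Levels of different genes were compared as normalized reads per kb of annotated exon. Plxnd1 was highest in both groups, at 239 ± 17.6 in KO and 245 ± 14.6 in WT hearts (SD, n = 3 each). Sema3b came next in KO hearts, at 108 ± 8.96 per kb, above the highest Nrp1 library of that group. In WT hearts Sema3b stood at 58.1 ± 6.28 per kb, and there Nrp1, Sema3b and Sema3f were not set apart beyond their spread. Nrp1 had 74.7 ± 6.27 per kb in KO and 59.8 ± 8.23 in WT hearts. Sema3f had 65.9 ± 5.24 per kb in KO and 53.6 ± 5.58 in WT hearts. Nrp2, at 47.1 ± 1.44 in KO and 48.3 ± 3.21 in WT hearts, and Plxna2, at 34.9 ± 4.83 in KO and 29.6 ± 2.55 in WT hearts, followed in both. Nrp2 overlapped Sema3f in WT but not in KO libraries.

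The ligands of chromosome 5 made up the low end. Sema3d had 25.3 ± 4.37 per kb in KO and 18.4 ± 5.68 in WT hearts. Sema3c had 15.2 ± 2.14 in KO and 20.0 ± 0.984 in WT hearts, overlapping Sema3d in WT but lying below it in KO libraries. Sema3a had 12.5 ± 3.07 per kb in KO and 12.4 ± 0.0833 in WT hearts, overlapping Sema3c in KO but lying below it in WT libraries. Sema3e was lowest, at 0.287 ± 0.124 in KO and 0.646 ± 0.285 per kb in WT hearts. Per kb of the longest coding transcript, which leaves out bases found only in other transcripts, Plxnd1 also came first, but the order below it differed. Nrp1 stood above Sema3b in KO hearts, at 203 against 152 per kb. In WT hearts Nrp1, at 163, stood above Nrp2, Sema3f and Sema3b, at 85.1, 82.1 and 81.3. Sema3a stood above Sema3c, at 29.3 against 19.8 in KO and 28.9 against 26.0 in WT hearts. The order of levels in both groups thus depends on the length used.

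Summed per kb of annotated exon, the 6 ligands came to 228, 222 and 232 in KO libraries and 172, 161 and 156 in WT libraries. The 4 receptors came to 391, 414 and 383 per kb in KO libraries and 373, 388 and 387 in WT libraries. The ligand sums did not overlap between the groups, and the receptor sums did. Sema3b made up 48.0, 44.5 and 50.2% of the ligand sum in KO libraries and 37.9, 33.8 and 34.9% in WT libraries. Sema3c made up 5.95, 7.95 and 6.21% in KO libraries and 11.5, 11.8 and 13.5% in WT libraries. These sums rest on the same contrast that chose the members and carry no test.

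**Figure D4:**
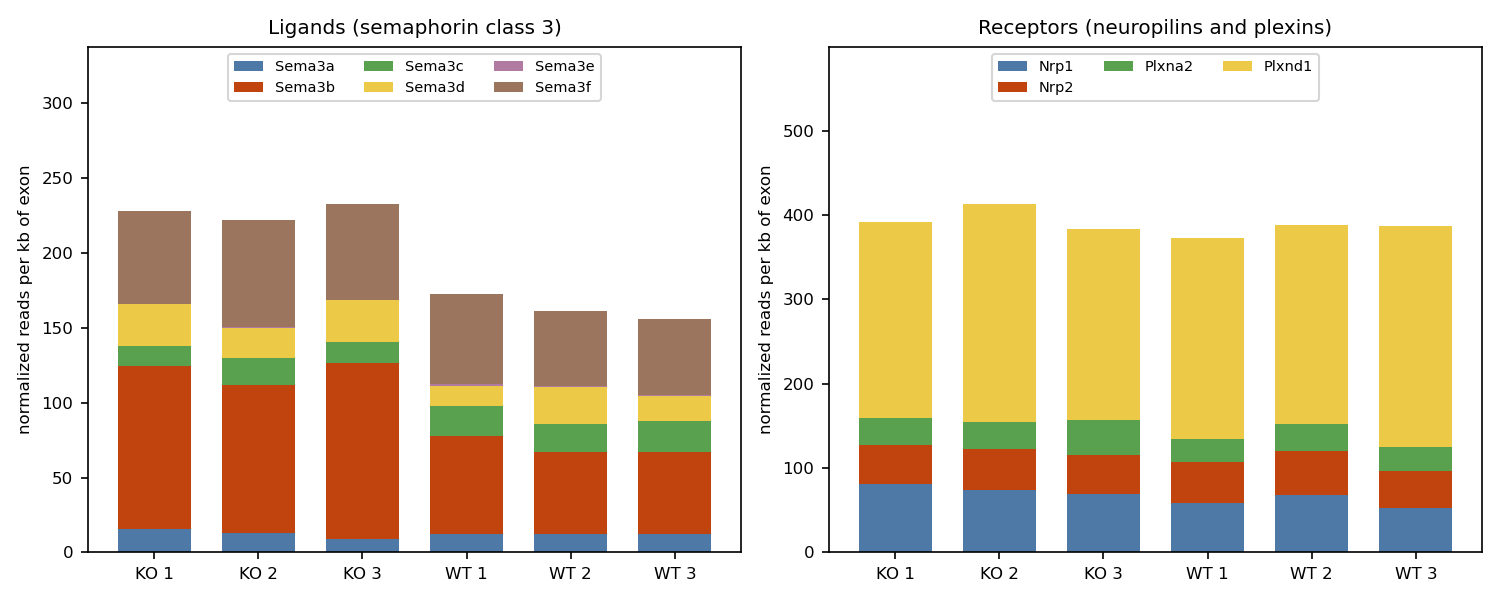
Stacked bars from 0 of normalized reads per kb of exon in each library, for the 6 ligands (left) and the 4 receptors (right), with KO libraries before WT libraries. The ligand stack reaches 222 to 232 in KO and 156 to 172 in WT libraries, with the Sema3b part the most different, while Plxnd1 fills most of every receptor stack.

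The members were also read for the sequence that RBPMS proteins are known to bind, because the knocked-out gene encodes such a protein. Human RBPMS recognises pairs of the letters CAC set a short distance apart in RNA. The longest coding transcript of each member in GENCODE M21 was searched on its own strand for CAC followed by another CAC after 3 to 12 bases, with overlapping pairs counted. The windows of 30 bases below show the first such pair, with both CAC in capitals, for the members whose groups did not overlap and for Nrp2, which held the most pairs in its 3′ UTR. They come from the 3′ UTR, except for Sema3b, whose 3′ UTR of 418 bases held 0 and whose window is from the coding sequence.
Sema3b: gctgctgCACacctacaacCACacccactt
Sema3f: ctacccaggcCACagcCACtcttgggttcc
Sema3c: attccagttCACaattttCACatagtaaat
Nrp1: atgagcgtCACctacagaCACaagcaggtg
Nrp2: aaaagcCACccagcttagctCACcctcaga

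Among 12672 tested coding genes with a 3′ UTR of at least 100 bases, 79.0% held such a pair there, with a median of 2.04 pairs per kb and quartiles of 0.77 and 3.66. The receptors were richer than the ligands. Nrp2 held 20 pairs, or 6.54 per kb, Nrp1 held 3, or 5.46 per kb, and Plxnd1 held 4, or 4.31 per kb. Plxna2 held 11, or 2.34 per kb. The ligands with pairs ranged from 0.51 per kb in Sema3e to 1.69 in Sema3a, all under the median of all genes, with 2 pairs in the 3′ UTR of Sema3c and 1 in that of Sema3f. The coding sequence of Sema3b held 7 pairs, as did those of Sema3a and Sema3e, and those of the other members held 4 to 26. A match of letters is a description of the sequence, and no binding was measured. Among these genes the densest 3′ UTRs, of Nrp2 and Nrp1, belonged to members with log2 fold changes of -0.04 and 0.33. The 3′ UTR with no pair belonged to the member at 0.90, whose whole transcript held 10. A link between pairs and fold changes was not tested.

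Related genes outside the 10 were read in 5 lists, with 68 of 70 genes tested. By limma 0 of the 68 were past the threshold, with 0 by voom and 16 at an unadjusted p under 0.05, of which 12 were higher and 4 lower in KO. An unadjusted p under 0.05 was reached by 16.4% of all tested genes. Groups did not overlap in 27.9% of the 68, against 22.0% of all tested genes, and their median log2 fold change was 0.08, against -0.001 over all. The log2 fold change was above 0 in 51 of the 68, and in 49.8% of all tested genes. Each list is described by its own gene with the smallest p.

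Of 13 tested semaphorins of the other classes and Sema3g, 4 had an unadjusted p under 0.05, 3 of them higher. Sema4b, a membrane semaphorin, held 271, 292 and 330 in KO libraries and 391, 365 and 378 in WT libraries. Its KO libraries all lay below the WT libraries (log2 fold change -0.35, limma adjusted p = 0.101), and without KO replicate 3 it was past the threshold (adjusted p = 0.00932). Of 7 other plexins, Plxnb1, a receptor of Sema4d, held 735, 849 and 731 in KO libraries and 891, 896 and 891 in WT libraries (log2 fold change -0.21, adjusted p = 0.19). The median of that list was 0.01, and 4 of the 7 were above 0.

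Vascular endothelial growth factors and their receptors, which share the neuropilins, had 7 of 8 fold changes above 0 and a median log2 fold change of 0.11. Flt1, a decoy-like receptor of these factors, held 1073, 948 and 1104 in KO libraries and 780, 941 and 802 in WT libraries (log2 fold change 0.31, adjusted p = 0.14). Among 24 tested cytoplasmic partners of plexins and neuropilins, 19 were above 0 with a median of 0.03. Mical2, an oxidase of actin filaments, held 2788, 2895 and 2856 in KO libraries and 2388, 2363 and 2580 in WT libraries (log2 fold change 0.22, adjusted p = 0.123).

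Of 16 other guidance genes 14 were above 0, with a median log2 fold change of 0.13. The exception with the smallest p was Dcc, a netrin receptor, at 3, 0 and 3 in KO libraries and 15, 18 and 11 in WT libraries (adjusted p = 0.075). These are low read numbers, and it was past the threshold without KO replicate 2 (limma, adjusted p = 0.0379), without KO replicate 3 (0.0127) and with no filter on low values (0.0472). Of the related genes, 4 more were past the threshold in some alternative, all higher in KO. Sema3g (limma, adjusted p = 0.0255) and the ephrin receptor gene Epha2 (0.0362) were past it without KO replicate 2. Slit2, a ligand of Robo receptors, was past it without KO replicate 3 (0.00402) and in the male libraries (0.0236), and the ephrin receptor gene Ephb3 in the male libraries (0.0358).

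Endothelial cells carry Nrp1 and Plxnd1, so their markers are given beside these genes. The 12 endothelial and endocardial markers summed to 10623 to 11234 in KO and 9696 to 9968 in WT libraries, ranges that do not overlap. Of the 12, 10 had a log2 fold change above 0, against 49.8% of all tested genes. The other 2, Cdh5 and Egfl7, stood at -0.04 and -0.02. Kdr and Flt1 of this list also stand in the growth factor list, as does Flt4 of the lymphatic list. The median log2 fold change of these markers was 0.14, against 0.33 for Nrp1 and -0.04 for Plxnd1. By limma 0 of the 12 were past the threshold, with 0 by voom and 3 at an unadjusted p under 0.05, which 16.4% of all tested genes reached. The 7 lymphatic markers summed to 2027 to 2326 in KO and 1831 to 1901 in WT libraries, also without overlap. Of the 7, 4 had a log2 fold change above 0, led by Mmrn1 at 0.88 and Lyve1 at 0.81. Prox1, Pdpn and Ccl21a stood at -0.02, -0.0 and -0.04. The part of these cells in the values of Nrp1 was not tested.

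The fibroblast markers summed to 13190 to 15892 in KO and 13821 to 16142 in WT libraries. Those of smooth muscle and pericytes summed to 7589 to 8051 in KO and 7670 to 8139 in WT libraries. Both ranges overlapped, and so did those of leukocytes and of neural crest derivatives, glia and neurons, in which Th was at 0 in 1 library. Of all these markers 1 was past the threshold, the pericyte proteoglycan gene Cspg4, with 1096, 1246 and 1278 in KO libraries and 958, 858 and 860 in WT libraries (log2 fold change 0.43, limma adjusted p = 0.0472). It was past the threshold in 8 of 19 alternatives, and not by voom or without KO replicate 1 or any 1 of the WT libraries. The groups did not overlap in 6 of the 10 genes of that list, 4 lower in KO and 2, Cspg4 and Notch3, higher. Over all tested genes that share was 10.9% lower and 11.0% higher. Notch3 had a log2 fold change of 0.21. Pdgfrb, Rgs5, Tagln and Kcnj8 overlapped between the groups, at 0.12, 0.0, -0.03 and -0.23. None of the 4 lower genes was past the threshold. Myh11, the smooth muscle myosin gene, held 171, 227 and 216 in KO libraries and 303, 339 and 289 in WT libraries (log2 fold change -0.61, limma adjusted p = 0.057) and was past it in 5 of 19 alternatives. Cnn1, which encodes calponin, held 38, 88 and 112 in KO libraries and 202, 155 and 195 in WT libraries (log2 fold change -1.33, adjusted p = 0.156). The log2 fold changes of Acta2, the smooth muscle actin gene, and Abcc9, a potassium channel subunit gene, were -0.32 and -0.18.

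The profiles most like those of the leading ligand and receptor were found as the smallest root mean square distance of centred log2 values over the 6 libraries, among 13124 named genes. Nearest to Sema3b were Cavin4, a caveolar protein of muscle, at a distance of 0.058, Hspa1l, a heat shock protein with close paralogues, at 0.072, and Gli1, a transcription factor of hedgehog signalling, at 0.098. Gli1 held 140, 120 and 151 in KO libraries and 93, 66 and 78 in WT libraries. Nearest to Nrp1 were Arhgef10, a guanine nucleotide exchange factor (0.033), Lsmem1 (0.044) and Ern1, a sensor of unfolded proteins (0.05). Such likeness over 6 libraries describes the values only.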

How the data were processed

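Stranded mRNA libraries of heart RNA, 3 KO and 3 WT, were read from a single end, per the labels' protocols. The submitters' processing notes list featureCounts 2.0.4, STAR 2.7.11a and DESeq2 1.36.0, then Trimmomatic 0.39 and Picard 3.0.0, and the build mm39, with no role or order. The deposited values were treated as a score: read numbers that the authors multiplied by a factor for each library and rounded, as read from the spacing of low values. Factors of 0.8524 to 1.1798 were recovered, and whole reads gave at least 99.69% of the values. Whether the counting used strand is not stated.

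The 14974 genes that reached a value of 10 in 3 or more libraries entered limma 3.58.1 (R 4.3.3, statmod 1.5.0) as log2(value + 1). The fit had a trended, robust variance prior and no covariate, and Benjamini-Hochberg adjustment ran over all of these genes. Fold changes on this scale understate those of low genes. The scripts were tested on simulated data. Exon lengths and transcript sequences were taken by gene identifier from GENCODE M21 (GRCm38), none of whose coordinates are printed, since the deposited table gives its own in mm39. The rule for genes named outside the members took those past the threshold in a list of related genes or, where none was, the one with the smallest p, and the 3 nearest profiles of the leading ligand and receptor. Neighbours of Sema3b, single markers and related genes past the threshold only in an alternative were named after their values were seen. The members and lists were chosen with earlier results of these data known. Alternatives covered pseudocount, filter, scaling, variance model, sex, replicate number and each library left out.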

Additional observations from a re-analysis of the deposited data

Results flagged for a closer look

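Sema3a went in opposite directions in the 2 sexes, as read from Xist and Y-linked RNA. Both male KO libraries lay above both male WT libraries (212 and 182 against 172 and 172), with a difference of 0.19 on the log2 scale, while the female KO library lay below the female WT library (128 against 170), with a difference of -0.41. The female minus the male difference was -0.6, and an interaction term over all tested genes gave a limma adjusted p = 0.301, which does not pass. With 1 female library in each group, sex cannot be told apart from what else sets KO replicate 3 apart.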

How the results depend on the processing

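Over 19 alternatives the log2 fold change of Sema3b stayed between 0.84 and 0.99, and its adjusted p was past the threshold in 15 of them. It was not past it with no trend and no robust moderation (0.0713) or without KO replicate 1, WT replicate 2 or WT replicate 3 (0.0671, 0.0974 and 0.143). Members past the threshold thus numbered 0 with no trend and no robust moderation, and 0 to 1 when each replicate was left out.

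Genes past the threshold over the whole table, 141 in the fit used, numbered 218 with no filter on low values, 78 with a mean value of at least 50, 72 with voom, 24 with no trend and no robust moderation and 223 with a term for sex. They numbered 256 in male libraries only and 73 with voom on recovered reads, both chosen after seeing the data, and from 0 to 727 when each replicate was left out (6, 510 and 727 without KO replicates 1, 2 and 3, and 3, 0 and 0 without WT replicates 1, 2 and 3). The deviations of same-numbered libraries from their group means correlated at -0.17, -0.11 and -0.13. With 3 libraries in each group these correlations are not independent, so they cannot show whether the replicate numbers pair the libraries. A fit with a block for replicate number called 23 genes, Sema3b among them (adjusted p = 0.0353). Related genes past it, 0 in the fit used, numbered 1 with no filter, 2 in male libraries and 0 to 3 when each replicate was left out.

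Signs turned in members close to 0. Sema3a ranged from -0.17 to 0.2 when each replicate was left out, with 0.2 without KO replicate 3, and was 0.19 in male libraries. Plxnd1 ranged from -0.096 to 0.012, with 0.0011 without KO replicate 3 and 0.012 without WT replicate 3, and Nrp2 from -0.086 to 0.01, which was reached without WT replicate 2. The causes of these changes were not tested. Sema3c, Sema3d, Sema3f, Nrp1 and Plxna2 kept their sign in all 19 alternatives and were past the threshold in 0 of them. At this depth the few reads of Sema3e allow no comparison.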
